A study of Mus musculus with 15 samples.

Results

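Regulators of G-protein signalling (RGS proteins) were followed in the thymus of diabetes-prone NOD-background mice after injection of a T-cell antigen peptide. The genes were Rgs1, Rgs2, Rgs3, Rgs10, Rgs14, Rgs16, Rgs18 and Rgs19, chosen by gene symbol and with earlier results of these data known. A gene was taken as measured where an array probe set carried that symbol alone in its annotation, and the probe set with the highest mean was used where a gene had several. This gave 7 of the 8 genes, among 19938 genes measured in the same way. Rgs10 had no such probe set and was not analysed here.

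Each of 15 arrays held total RNA of a whole thymus from a 5-week-old female mouse, collected 2 h after an intravenous injection of 0.5 µg of peptide. The injected peptide was either gp33, a peptide of the glycoprotein of lymphocytic choriomeningitis virus (LCMV), or a control peptide that also binds the class I molecule Db. There were 4 groups: NOD.LCMV mice given gp33 (n = 3), NOD.LCMV mice given control peptide (n = 3), NOD.Ln82-LCMV mice given gp33 (n = 5) and NOD.Ln82-LCMV mice given control peptide (n = 4). All mice were female and carried the NOD background and the element that the strain names call LCMV. The labels say neither which cells that element acts in nor what the Ln82 interval holds, and they name no batch, so a batch that followed strain cannot be told apart from strain. Nothing in the labels says more of the replicates than that they are separate mice. Each p-value sets a difference of group means against the spread between mice within groups.

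G-protein-coupled receptors, among them the chemokine receptors that guide thymocytes through the thymus, signal by loading the alpha subunit of a G protein with GTP. RGS proteins speed the hydrolysis of that GTP, so the signal ends sooner and a cell with more RGS protein responds less to the same ligand. In lymphocytes several of these genes are known to change with antigen receptor stimulation, and Rgs1 and Rgs16 are known to be induced by it. By sequence, Rgs1, Rgs2, Rgs3, Rgs16 and Rgs18 belong to the R4 family, Rgs10 and Rgs14 to the R12 family and Rgs19 to the RZ family.

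After gp33 in NOD.LCMV mice, Rgs1 and Rgs16 were each about 4 times as high as after control peptide. Rgs14, Rgs18 and Rgs19 were lower there, and Rgs2 and Rgs3 did not pass the test. Rgs3 was judged by the brighter of its 2 probe sets, and the other fell (-0.30, limma adjusted p = 0.0215 over all probe sets). None of the 7 genes passed the test in NOD.Ln82-LCMV mice. The responses of Rgs1 and Rgs16 differed between the strains, and so did that of Rgs14, although its call was lost without any one of 8 of the 15 mice. The call on the fall of Rgs18 in NOD.LCMV mice was lost without any one of 5 mice and after a second quantile normalization.

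Rgs1, Rgs2, Rgs16 and Rgs18 lie on chromosome 1 of the mouse reference GRCm38.p6, Rgs19 on chromosome 2, Rgs3 on chromosome 4, Rgs10 on chromosome 7 and Rgs14 on chromosome 13. Rgs2, Rgs13, Rgs1, Rgs21 and Rgs18 are 5 consecutive protein-coding genes in that annotation, while Rgs16 lies elsewhere on the same chromosome. RefSeq promoter sequence of GRCm38.p6, 250 bases before to 50 bases after a start of transcription, was at hand for Rgs2, Rgs3, Rgs10, Rgs16 and Rgs19. The promoters of Rgs16 and Rgs2 are shown because they belong to a chromosome 1 gene that rose with gp33 and to one that did not pass the test. Capitals mark every match, on either strand, to a loose form of the kappaB element (3 G, then 5 bases of any kind, then 2 C) or to TGACG, the core of the cyclic AMP response element.

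Rgs16, chr1:153740103-153740402, plus strand: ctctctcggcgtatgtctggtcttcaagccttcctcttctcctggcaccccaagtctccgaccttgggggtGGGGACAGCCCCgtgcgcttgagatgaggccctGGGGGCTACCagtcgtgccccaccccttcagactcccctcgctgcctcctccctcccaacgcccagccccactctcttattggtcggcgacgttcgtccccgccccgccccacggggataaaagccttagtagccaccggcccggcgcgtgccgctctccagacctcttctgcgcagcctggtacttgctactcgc
Rgs2, chr1:144004100-144004399, minus strand: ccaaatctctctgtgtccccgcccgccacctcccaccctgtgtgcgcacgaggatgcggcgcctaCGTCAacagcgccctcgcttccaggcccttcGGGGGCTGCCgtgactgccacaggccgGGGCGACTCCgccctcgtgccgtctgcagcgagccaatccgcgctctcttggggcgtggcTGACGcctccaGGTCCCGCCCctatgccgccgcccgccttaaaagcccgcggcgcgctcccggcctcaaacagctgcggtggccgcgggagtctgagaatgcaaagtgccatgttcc

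The Rgs16 window held 5 matches to the kappaB form, 4 of them overlapping one another, and none to TGACG. The Rgs2 window held 3 matches to the kappaB form and 2 to TGACG. Neither window held TGANTCA (the AP-1 element), GGAAA (the core bound by NFAT) or AAAGGTCA (the element bound by the Nr4a orphan receptors). Over 32851 RefSeq promoters of the same length, 50.8% held the kappaB form, 20.8% TGACG, 7.81% TGANTCA, 61.3% GGAAA and 1.51% AAAGGTCA. Matches describe the letters of the window only.

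The measurements are log2 array intensities. The responses were tested with limma over all 19938 genes, with p-values adjusted by the method of Benjamini and Hochberg, and a gene was called at an adjusted p under 0.05. The arrays had medians of 7.59 to 7.67 and a lowest correlation of 0.990 between arrays of a group. The medians followed group. In NOD.LCMV mice they were 7.63 to 7.64 with gp33 and 7.66 to 7.67 with control peptide. In NOD.Ln82-LCMV mice they were 7.59 to 7.63 with gp33 and 7.59 to 7.62 with control peptide. Centring the arrays on these medians shifted the split of higher and lower calls, as given at the end. Across all genes 19.8% were called for the gp33 response in NOD.LCMV mice, 7.29% higher and 12.5% lower. In NOD.Ln82-LCMV mice the corresponding share was 0.00502%, a single gene, although 1190 genes had an unadjusted p under 0.05. In NOD.LCMV mice 5 of the 7 RGS genes were called, 2 higher and 3 lower, and the median difference of the 7 was -0.08 on the log2 scale, against -0.03 over all genes. In NOD.Ln82-LCMV mice 0 of the 7 were called by limma, 2 had an unadjusted p under 0.05, and the median difference was 0.02, against 0.00 over all genes. None of the alternative fits called a member there either.

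**Figure D1:**
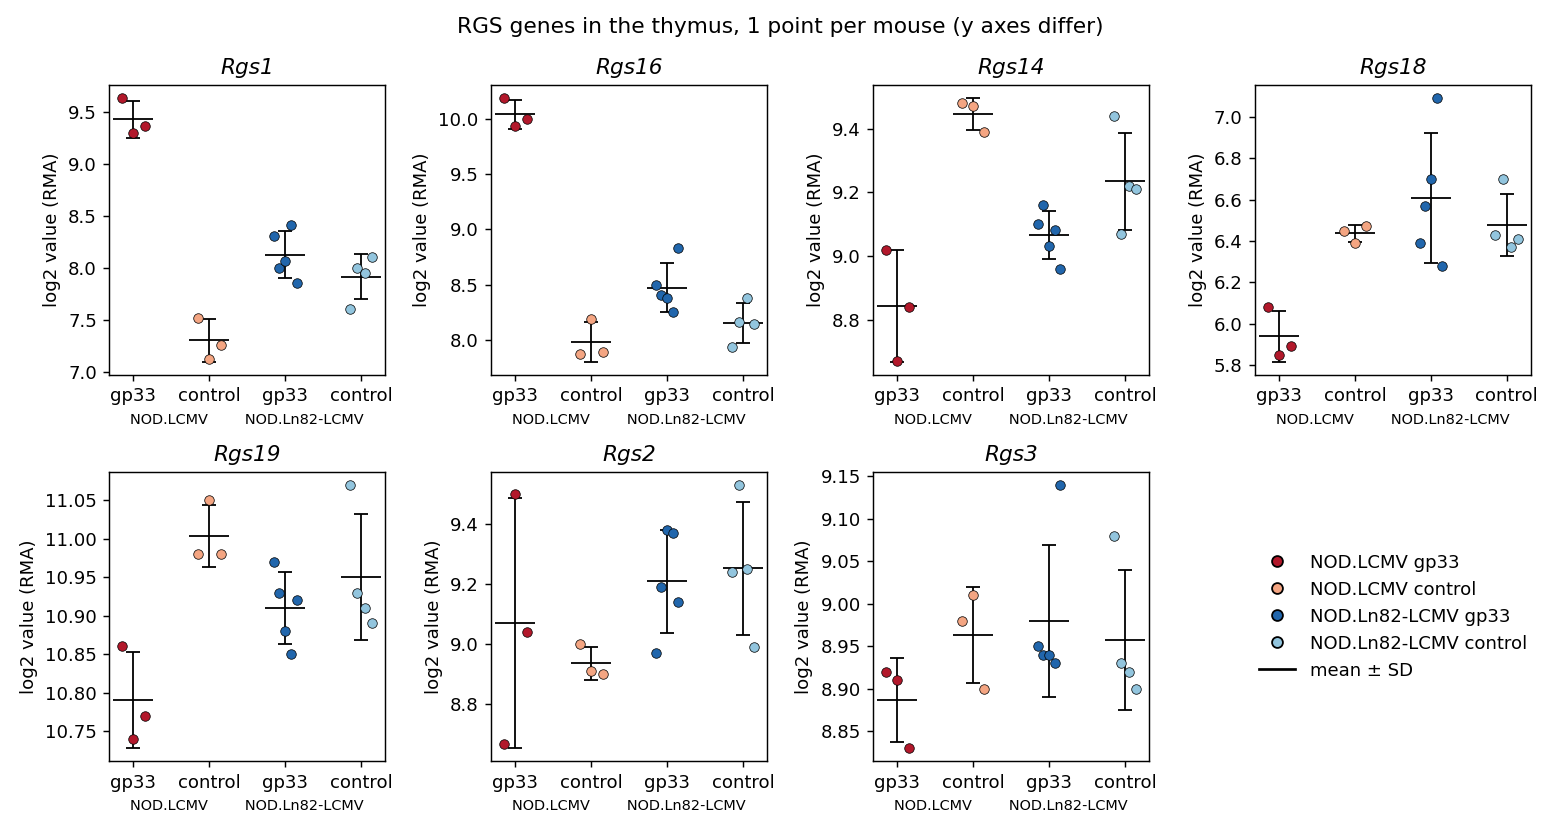
Log2 array intensity of the 7 measured RGS genes in each mouse (points), with the mean and SD of each group (bars), in the order NOD.LCMV gp33, NOD.LCMV control, NOD.Ln82-LCMV gp33 and NOD.Ln82-LCMV control. The gp33 points of NOD.LCMV mice lie above all other points for Rgs1 (9.29 to 9.63) and Rgs16 (9.94 to 10.19). Levels of different genes come from different probes and are not comparable.

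Rgs1, which restrains the chemokine-directed migration of B and T cells, had log2 intensities of 9.63, 9.29 and 9.36 in NOD.LCMV mice given gp33, against 7.52, 7.12 and 7.26 in NOD.LCMV mice given control peptide. NOD.Ln82-LCMV mice had 8.30, 8.0, 8.06, 8.41 and 7.85 with gp33, against 7.60, 8.0, 7.95 and 8.10 with control peptide. The NOD.LCMV groups were far apart, whereas the NOD.Ln82-LCMV groups overlapped between 7.85 and 8.10. The response in NOD.LCMV mice was 2.13 ± 0.15 on the log2 scale (SE, 3 mice against 3), equal to 4.37 times the control level (95% interval 3.49 to 5.47, limma adjusted p = 8.84e-08), and it ranked 36 among all genes by size of increase. In NOD.Ln82-LCMV mice the response was 0.21 ± 0.13 (95% interval -0.06 to 0.48, adjusted p = 0.893). The difference between the responses was 1.92 ± 0.20, that is 3.77-fold with a 95% interval of 2.82 to 5.05 (adjusted p = 1.23e-05).

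Rgs1 also differed between the strains without gp33, and in the opposite direction. With control peptide it was 7.30 ± 0.20 in NOD.LCMV mice (SD, n = 3) and 7.91 ± 0.22 in NOD.Ln82-LCMV mice (SD, n = 4), with no overlap. That difference of -0.61 ± 0.14 (SE) put it 1.53-fold lower in NOD.LCMV mice (limma adjusted p = 0.0124). The call rested on the NOD.LCMV control mice: it was lost without replicate 2 (-0.52, adjusted p = 0.0705) and without replicate 3 (-0.59, adjusted p = 0.0569). With gp33 Rgs1 was 9.43 ± 0.18 in NOD.LCMV mice and 8.12 ± 0.23 in NOD.Ln82-LCMV mice, a difference of 1.30 ± 0.14 or 2.47-fold (adjusted p = 4.12e-06). In order, the groups ran from NOD.LCMV with gp33 through NOD.Ln82-LCMV with gp33 and NOD.Ln82-LCMV with control peptide to NOD.LCMV with control peptide, and the 2 NOD.Ln82-LCMV groups were the only neighbours not told apart by the test.

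Rgs16, which acts on both Gi and Gq alpha subunits and is induced in activated T cells, had log2 intensities of 10.19, 9.94 and 10 in NOD.LCMV mice given gp33, against 7.87, 8.19 and 7.89 in those given control peptide. The values in NOD.Ln82-LCMV mice were 8.50, 8.41, 8.38, 8.25 and 8.83 with gp33, against 7.94, 8.16, 8.38 and 8.14 with control peptide. Again the NOD.LCMV groups did not overlap, and in NOD.Ln82-LCMV mice a single control value reached into the gp33 range. The response in NOD.LCMV mice was 2.06 ± 0.14, equal to 4.17 times the control level (95% interval 3.41 to 5.09, limma adjusted p = 3.56e-08), and it ranked 41 by size of increase. The NOD.Ln82-LCMV response was 0.32 ± 0.11, with an unadjusted p of 0.0118 that did not survive adjustment over all genes (limma adjusted p = 0.741). This was the largest increase of the 7 genes in that strain. The difference between the responses was 1.74 ± 0.18, or 3.34-fold with a 95% interval of 2.58 to 4.33 (adjusted p = 9.56e-06).

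With gp33 Rgs16 stood 2.97-fold higher in NOD.LCMV mice than in NOD.Ln82-LCMV mice (1.57 ± 0.12, limma adjusted p = 1.89e-07). With control peptide the strains were not told apart at Rgs16 (-0.17 ± 0.13, adjusted p = 0.498). Thus the 2 induced genes shared their order of groups, but only Rgs1 passed the test of the strain difference with control peptide. Whether Rgs1 and Rgs16 differed from each other in that respect was not tested.

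Rgs2, a regulator that prefers the Gq alpha subunit, read 8.67, 9.50 and 9.04 in NOD.LCMV mice given gp33, against 9.0, 8.91 and 8.90 in those given control peptide. In NOD.Ln82-LCMV mice its values were 8.97, 9.19, 9.38, 9.37 and 9.14 with gp33, against 9.24, 9.53, 9.25 and 8.99 with control peptide. The gp33 mice of NOD.LCMV were the most spread group, with values on both sides of their controls. The response there was 0.13 ± 0.17 (95% interval -0.23 to 0.49, limma adjusted p = 0.717), and in NOD.Ln82-LCMV mice it was -0.04 ± 0.14 (adjusted p = 0.995). No other comparison of Rgs2 passed the test, the lowest adjusted p being 0.262 for the strain difference with control peptide (-0.32 ± 0.16). Rgs2 had the widest spread within groups of the 7 genes, an SD of 0.237 against a median of 0.0850 over all genes.

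Rgs18, a regulator best known from platelets and megakaryocytes, read 6.08, 5.85 and 5.89 in NOD.LCMV mice given gp33, against 6.45, 6.39 and 6.47 in those given control peptide. Its values in NOD.Ln82-LCMV mice were 6.39, 6.57, 6.70, 7.09 and 6.28 with gp33, against 6.43, 6.70, 6.37 and 6.41 with control peptide. All 3 gp33 mice of NOD.LCMV lay below every other mouse. The response in NOD.LCMV mice was -0.50 ± 0.15, a 1.41-fold fall (limma adjusted p = 0.0312), and in NOD.Ln82-LCMV mice it was 0.13 ± 0.13 (adjusted p = 0.986). The mean of Rgs18 lay below 6.92, the limit under which dim genes were left out in an alternative fit.

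The call on Rgs18 in NOD.LCMV mice was thin. It was lost without gp33 replicate 2 (adjusted p = 0.106) or gp33 replicate 3 (0.0886), and without control replicate 1 (0.0799), 2 (0.0647) or 3 (0.0834), with differences between -0.57 and -0.45 over all mice left out in turn. The difference between the responses was -0.63 ± 0.20 and missed the threshold (limma adjusted p = 0.0653). With gp33 Rgs18 was 1.59-fold lower in NOD.LCMV mice than in NOD.Ln82-LCMV mice (-0.67 ± 0.14, adjusted p = 0.00172), while with control peptide the difference was -0.04 ± 0.14 (adjusted p = 0.924). Of 6 platelet markers, 0 rose and 1 fell in the gp33 response of NOD.LCMV mice, where 7.29% of all genes rose and 12.5% fell. The marker that fell was Gp5, a platelet glycoprotein, by 0.18 (limma adjusted p = 0.0359). With gp33, 2 of the 6 were lower in NOD.LCMV mice than in NOD.Ln82-LCMV mice, where 16.8% of all genes were lower. These were the platelet chemokine genes Ppbp (-0.72, adjusted p = 0.0154) and Pf4 (-0.14, adjusted p = 0.0426). The differences of 3 of the 6 were positive there, and the median was -0.02. With control peptide 1 of the 6, Ppbp, was lower in NOD.LCMV mice as well (-0.90, adjusted p = 0.0141). There 5.54% of all genes were lower. The mean log2 level of those 6 markers lay between 7.31 and 7.36 with gp33 and between 7.35 and 7.42 with control peptide in NOD.LCMV mice. It lay between 7.31 and 7.56 with gp33 and between 7.43 and 7.56 with control peptide in NOD.Ln82-LCMV mice. Their part in the Rgs18 result was not tested.

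Rgs3, which acts on Gi and Gq alpha subunits and is made in several isoforms, had 2 probe sets. The brighter one read 8.92, 8.91 and 8.83 in NOD.LCMV mice given gp33, against 8.98, 9.01 and 8.90 in those given control peptide. Its NOD.Ln82-LCMV values were 8.95, 8.94, 8.94, 8.93 and 9.14 with gp33, against 9.08, 8.93, 8.92 and 8.90 with control peptide. The response was -0.08 ± 0.06 in NOD.LCMV mice (95% interval -0.21 to 0.06, limma adjusted p = 0.505) and 0.02 ± 0.05 in NOD.Ln82-LCMV mice (adjusted p = 0.995). Apart from 1 high mouse in each NOD.Ln82-LCMV group, Rgs3 by this probe set hardly varied.

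The other Rgs3 probe set behaved differently. It read 8.18, 8.04 and 8.15 in NOD.LCMV mice given gp33, against 8.45, 8.45 and 8.38 in those given control peptide, with no overlap. The same probe set gave, in NOD.Ln82-LCMV mice, 8.16, 8.18, 8.08, 8.12 and 8.13 with gp33, against 8.39, 8.13, 8.03 and 8.01 with control peptide. In a fit over all probe sets the NOD.LCMV response at this probe set was -0.30 ± 0.08 (limma adjusted p = 0.0215), against -0.01 ± 0.07 in NOD.Ln82-LCMV mice (adjusted p = 0.999). With control peptide it was higher in NOD.LCMV mice by 0.29 ± 0.07 (adjusted p = 0.0248). The 2 probe sets of Rgs3 therefore disagreed, and the annotation used here does not say which transcripts each one reads.

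Rgs14, an R12 member that also binds Ras-family GTPases and inactive Gi alpha subunits, had log2 intensities of 9.02, 8.67 and 8.84 in NOD.LCMV mice given gp33, against 9.48, 9.47 and 9.39 in those given control peptide. Its values in NOD.Ln82-LCMV mice were 9.10, 9.16, 9.03, 9.08 and 8.96 with gp33, against 9.44, 9.07, 9.22 and 9.21 with control peptide. The NOD.LCMV groups did not overlap, and in NOD.Ln82-LCMV mice 1 of the 4 control values lay inside the gp33 range. The response was -0.60 ± 0.09 in NOD.LCMV mice, a 1.52-fold fall (limma adjusted p = 0.000199), and only 0.712% of all genes had a lower value. In NOD.Ln82-LCMV mice it was -0.17 ± 0.07, with an unadjusted p of 0.038 that did not survive adjustment over all genes (limma adjusted p = 0.825). There 1.39% of all genes had a lower value.

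The responses of Rgs14 differed between strains by -0.43 ± 0.12 (limma adjusted p = 0.0301). That call was lost without any one of 8 mice, with adjusted p-values between 0.0521 and 0.0929: NOD.LCMV gp33 replicates 2 and 3, NOD.LCMV control replicates 1 and 2, NOD.Ln82-LCMV gp33 replicate 2 and NOD.Ln82-LCMV control replicates 2, 3 and 4. The difference itself lay between -0.52 and -0.35 with each of the 15 mice left out in turn. It was also lost with arrays centred on their medians (-0.40, adjusted p = 0.0597). Between strains Rgs14 was -0.22 ± 0.08 with gp33 (adjusted p = 0.054) and 0.21 ± 0.08 with control peptide (adjusted p = 0.14), both short of the threshold and opposite in sign.

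Rgs19, an RZ member also called GAIP that acts on Gi alpha subunits, read 10.86, 10.74 and 10.77 in NOD.LCMV mice given gp33, against 10.98, 11.05 and 10.98 in those given control peptide. In NOD.Ln82-LCMV mice it read 10.97, 10.93, 10.88, 10.85 and 10.92 with gp33, against 11.07, 10.93, 10.91 and 10.89 with control peptide. The NOD.LCMV groups were close but did not overlap. The response there was small, -0.21 ± 0.05 or 1.16-fold lower (limma adjusted p = 0.00944), and in NOD.Ln82-LCMV mice it was -0.04 ± 0.04 (adjusted p = 0.989). The difference between the responses was -0.17 ± 0.07 and was not called (adjusted p = 0.152). Rgs19 had the narrowest spread of the 7 genes within groups, an SD of 0.0601.

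**Figure D2:**
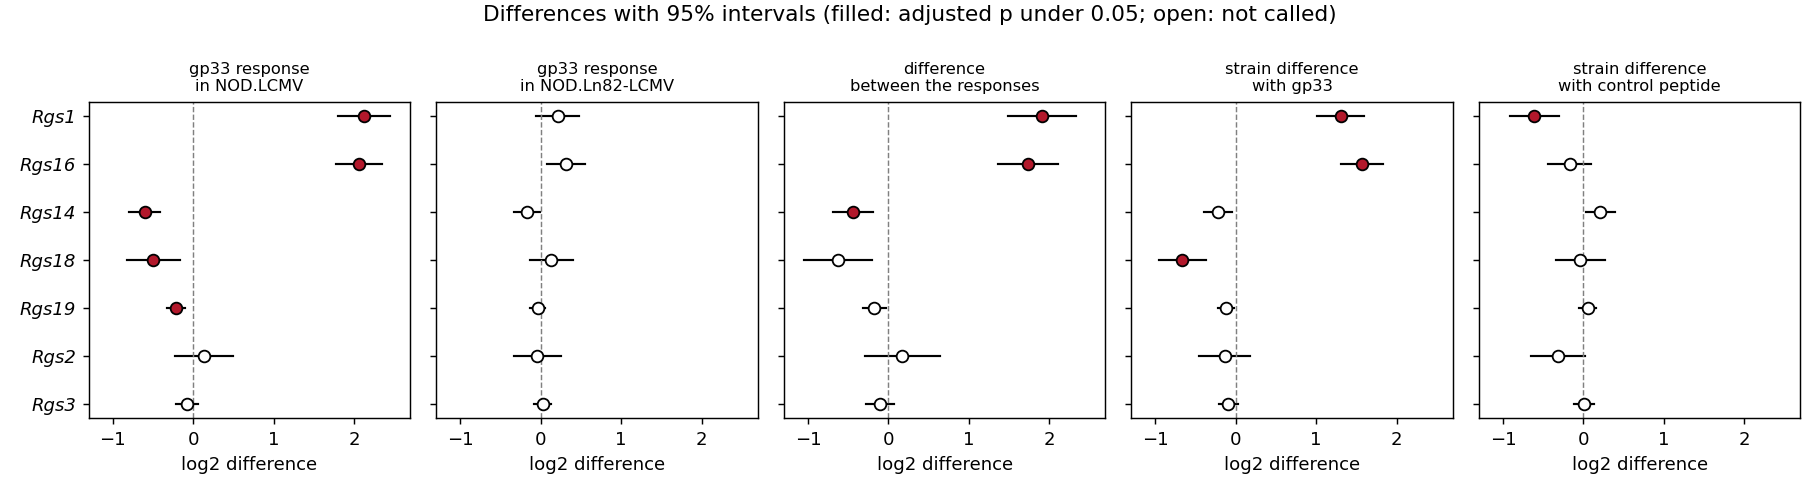
Log2 differences of the 7 RGS genes with 95% intervals in 5 comparisons: the gp33 response (gp33 minus control peptide) in each strain, the difference between these responses, and the strain difference with each peptide. Differences of strains are NOD.LCMV minus NOD.Ln82-LCMV. Filled points passed an adjusted p of 0.05. Rgs1 and Rgs16 lie near 2 in the NOD.LCMV response, and no point is filled in the NOD.Ln82-LCMV response.

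Across the 7 genes the difference between the responses was called for 3, with Rgs1 and Rgs16 higher and Rgs14 lower in NOD.LCMV mice, where 8.73% of all genes were called, 4.46% higher and 4.26% lower. With gp33 the strains differed at 3 of the 7, Rgs1 and Rgs16 higher and Rgs18 lower, against 27.0% of all genes, 10.2% higher and 16.8% lower. With control peptide they differed at Rgs1 alone, which was lower, against 10.3% of all genes called and 5.54% lower, and 1 of 7 is close to that background. The comparisons share groups of mice, so their values for a gene are not independent of one another.

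One NOD.Ln82-LCMV control mouse, replicate 1, lay at the edge of its group at several of these genes. Only its Rgs3 value was flagged as far from the group, as given at the end. This mouse had the lowest Rgs1 (7.60) and Rgs16 (7.94) of the 4 and the highest Rgs14 (9.44), Rgs19 (11.07) and Rgs3 (9.08). Without it the NOD.Ln82-LCMV response was 0.11 at Rgs1, 0.25 at Rgs16, -0.10 at Rgs14 and 0.00 at Rgs19, again with 0 of 7 genes called. The difference between the responses was then also called at Rgs19 (-0.21, limma adjusted p = 0.0402), and the strain difference with control peptide at Rgs14 (0.28, adjusted p = 0.0268). With gp33 the strain difference was then also called at Rgs14 (-0.22, adjusted p = 0.0264) and Rgs19 (-0.12, adjusted p = 0.0405).

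The neighbours on chromosome 1 did not move as a block. In gene order, the NOD.LCMV responses were 0.13 at Rgs2 (limma adjusted p = 0.717), -0.09 at Rgs13 (0.126), 2.13 at Rgs1, -0.02 at Rgs21 (0.925) and -0.50 at Rgs18. Rgs1 thus rose between neighbours that did not pass the test on either side.

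Among the other RGS and RGS-related genes, which include relatives with an RGS-like domain and the anchoring proteins Rgs7bp and Rgs9bp, 19 of 19 listed were measured, and in NOD.LCMV mice 1 rose and 4 fell, a share near that of all genes (19.8% called). Rgs4, a regulator best known from neurons and smooth muscle, read 7.85, 7.49 and 7.76 in NOD.LCMV mice given gp33, against 7.04, 7.17 and 6.99 in those given control peptide. That 1.55-fold rise (0.63 ± 0.12, limma adjusted p = 0.00158) was smaller than those of Rgs1 and Rgs16 and was not shared by a called response in NOD.Ln82-LCMV mice. Axin2, a scaffold of the beta-catenin destruction complex and itself a target of Wnt signalling, fell by 0.43 ± 0.06 on the log2 scale (adjusted p = 6.27e-05). Rgs11 fell by 0.43 ± 0.13 (adjusted p = 0.033), Rgs12 by 0.27 ± 0.07 (adjusted p = 0.0109) and the sorting nexin Snx14 by 0.22 ± 0.06 (adjusted p = 0.0201). The list's median was -0.08, against -0.03 over all genes. None of the 19 was called in NOD.Ln82-LCMV mice, and the difference between the responses was called at Axin2 (-0.32 ± 0.07, adjusted p = 0.0118) and Rgs12 (adjusted p = 0.0491). Together with the 7 genes described above, 10 of 26 genes were called in NOD.LCMV mice, against 19.8% of all genes. Those 7 genes were chosen with earlier results of these data known, so the pooled count is no test of the family.

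**Figure D3:**
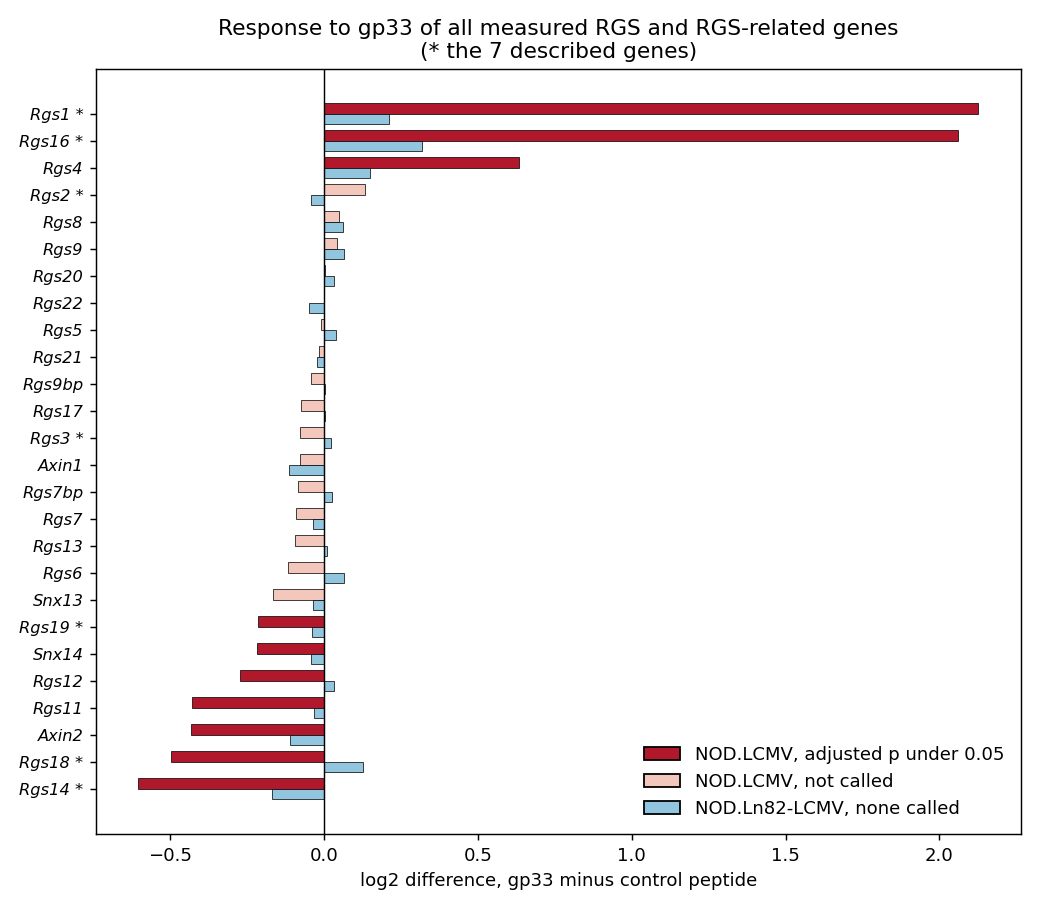
The gp33 response (log2 difference, gp33 minus control peptide) of 26 RGS and RGS-related genes in NOD.LCMV and NOD.Ln82-LCMV mice, with an asterisk at the 7 genes described one by one. The 2 tallest bars are Rgs1 (2.13) and Rgs16 (2.06) in NOD.LCMV mice, and Rgs4 (0.63) comes next among the called rises.

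The partners of RGS proteins were described from lists of their pathway. Leukocyte G-protein-coupled receptors, whose signals RGS proteins shorten, moved both ways in NOD.LCMV mice: of 26 measured, 7 rose and 6 fell, where 7.29% of all genes rose and 12.5% fell, and the median was 0.07. Gpr183, the oxysterol receptor that positions activated lymphocytes, rose 3.59-fold (1.84 ± 0.13, limma adjusted p = 8.06e-08). S1pr1, the receptor by which mature thymocytes leave the thymus, was 1.81-fold lower (-0.85 ± 0.07, adjusted p = 5.92e-07). The prostaglandin E2 receptor Ptger4 rose by 0.91 ± 0.05 (adjusted p = 1.4e-08), the complement receptor C5ar1 by 0.50 ± 0.07 (adjusted p = 0.000136) and the chemokine receptor Ccr1 by 0.43 ± 0.05 (adjusted p = 4.26e-05). In NOD.Ln82-LCMV mice 0 of the 26 were called, and the values were 0.21 ± 0.11 for Gpr183 (adjusted p = 0.873), -0.21 ± 0.06 for S1pr1 (adjusted p = 0.623) and 0.11 ± 0.04 for Ptger4 (adjusted p = 0.805).

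The G-protein subunits called in the gp33 response of NOD.LCMV mice all fell, where 12.5% of all genes fell and 7.29% rose. Of 12 alpha subunits measured 3 fell and 0 rose, among them Gnai2, the main Gi alpha subunit of lymphocytes (-0.15 ± 0.04, limma adjusted p = 0.0221), and Gna15, a Gq-family subunit of blood cells (-0.31 ± 0.09, adjusted p = 0.0201). Of 15 beta and gamma subunits 3 fell and 0 rose, the largest change being that of Gng2 (-0.77 ± 0.09, adjusted p = 2.21e-05). The medians were -0.12 for alpha subunits and -0.02 for beta and gamma subunits, against -0.03 over all genes.

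Receptor kinases, arrestins and other modulators of G-protein signalling were lower as well: of 15 measured 10 fell and 0 rose, with a median of -0.29, where 12.5% of all genes fell. Grk6, a kinase that desensitises chemokine receptors, fell by 0.42 ± 0.07 (limma adjusted p = 0.000562), and Arrb2, which encodes beta-arrestin 2, by 0.37 ± 0.07 (adjusted p = 0.000759). Gpsm3, which binds inactive Gi alpha subunits, fell by 0.46 ± 0.08 (adjusted p = 0.000539). Grk4, another receptor kinase, fell by 0.39 ± 0.05 (adjusted p = 0.000114).

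Of 23 effectors 2 rose and 9 fell, with a median of -0.13, where 7.29% of all genes rose and 12.5% fell. Only the number that rose was near its share of all genes. The cyclic AMP phosphodiesterase Pde4b rose by 0.43 ± 0.06 (limma adjusted p = 6.83e-05). Rap1gap2 fell by 0.62 ± 0.09 (adjusted p = 9.88e-05). The phospholipase Plcb2 fell by 0.41 ± 0.05 (adjusted p = 3.52e-05) and the adenylyl cyclase Adcy6 by 0.48 ± 0.08 (adjusted p = 0.000359). With control peptide, Plcb2 (0.32, limma adjusted p = 0.000891) and Adcy6 (0.48, adjusted p = 0.000852) were higher in NOD.LCMV than in NOD.Ln82-LCMV mice. That comparison shares the NOD.LCMV control mice. In NOD.LCMV mice mean Plcb2 was 10.91 with gp33 and 11.32 with control peptide, and mean Adcy6 10.18 and 10.66. In NOD.Ln82-LCMV mice the means were 10.94 and 11.0025 for Plcb2, and 9.91 and 10.18 for Adcy6. No gene of any of these lists was called in NOD.Ln82-LCMV mice. The difference between the responses was called at 9 of 26 receptors (6 higher and 3 lower in NOD.LCMV mice), 2 of 12 alpha subunits, 1 of 15 beta and gamma subunits, 4 of 15 modulators and 3 of 23 effectors, against 8.73% of all genes.

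Between strains, the modulators differed with control peptide in the reverse sense: 6 of 15 were higher and 0 lower in NOD.LCMV mice, where 4.77% of all genes were higher. They included Grk6 (0.27) and Grk4 (0.29), both of which fell with gp33 in that strain. The fall and the strain difference share the NOD.LCMV control mice, so they are not independent results. Mean Grk6 was 11.01 and mean Grk4 6.38 in those control mice. In NOD.LCMV mice given gp33 the means were 10.59 and 5.997. In NOD.Ln82-LCMV mice they were 10.59 and 6.09 with gp33, and 10.735 and 6.0975 with control peptide. S1pr1 was higher by 0.29 (adjusted p = 0.0138) and the chemokine receptor Cxcr4 lower by 0.27 (adjusted p = 0.00895) in NOD.LCMV mice given control peptide. With centred arrays the calls of this comparison over all genes shifted strongly downward, to 15.3% higher of those called, against 46.3% without centring.

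**Figure D4:**
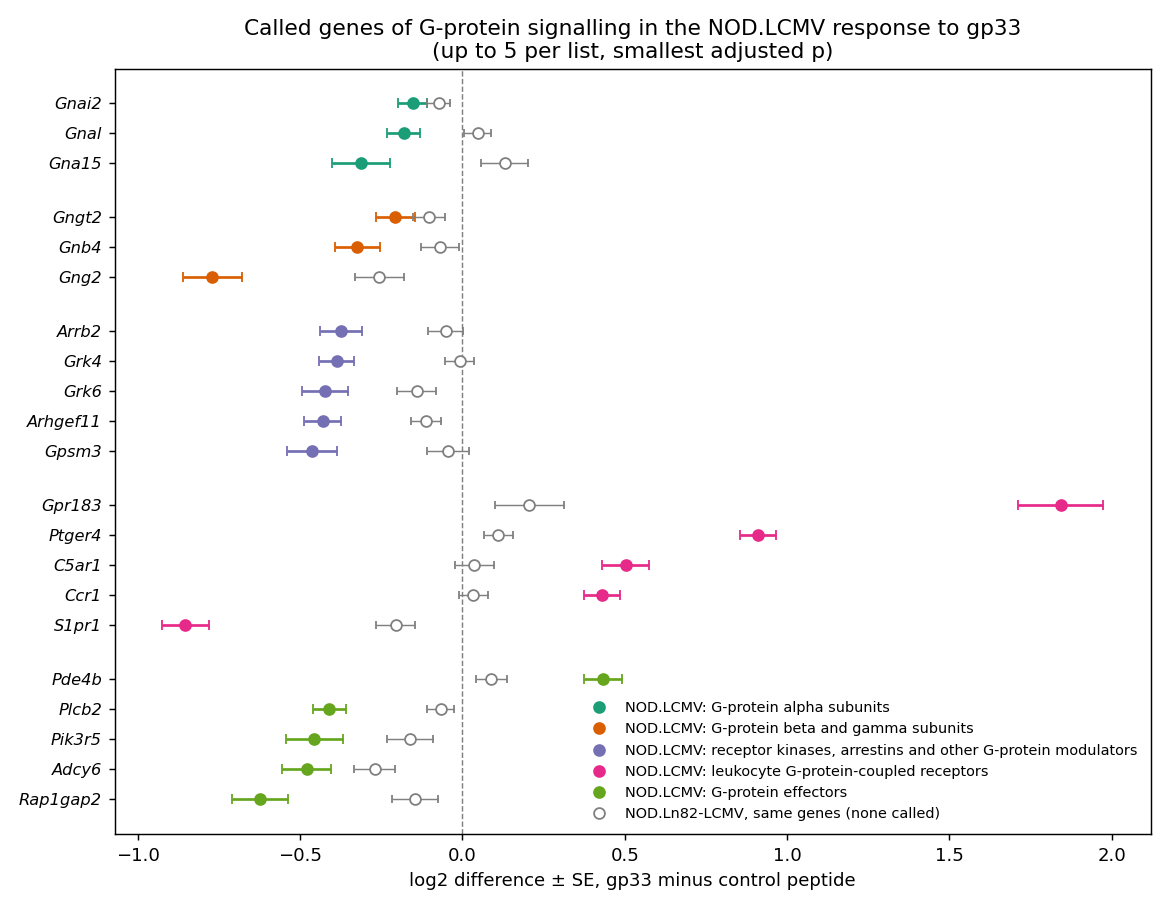
The gp33 response (log2 difference with SE, gp33 minus control peptide) of called genes from the G-protein pathway lists, in NOD.LCMV mice and NOD.Ln82-LCMV mice (grey open points). Gpr183 (1.84) and S1pr1 (-0.85) are among the extremes in NOD.LCMV mice, and none of the grey points was called.

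The genes whose profile over the 15 arrays lay nearest to each responding RGS gene were found among 18567 named genes, by the root mean square difference of log2 values after each gene's own mean was taken off. Nearest to Rgs1 were Plek (0.185), which encodes pleckstrin, the metalloproteinase inhibitor Timp1 (0.201) and the inhibitory receptor gene Lilrb4a (0.210), where Rgs1 itself varied by 0.720 about its mean. Nearest to Rgs16, which varied by 0.759, were Bcl3 (0.136), a nuclear member of the IkappaB family, Tnfsf14 (0.141), the cytokine LIGHT, and Batf (0.162), an AP-1 family transcription factor. In NOD.LCMV mice their responses were 1.84 for Plek, 2.10 for Timp1, 2.08 for Lilrb4a, 1.92 for Bcl3, 1.98 for Tnfsf14 and 2.00 for Batf. In NOD.Ln82-LCMV mice they lay between 0.20 (Timp1) and 0.45 (Bcl3).

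Nearest to Rgs14, which varied by 0.226, were Hspbap1 (0.0653), the Rab GTPase-activating gene Tbc1d10c (0.0674) and Rassf2 (0.0677). Nearest to Rgs19, which varied by 0.0875, were Evi5l (0.0299), Cd247 (0.0341), the zeta chain of the T-cell receptor complex, and Usf3 (0.0358). Nearest to Rgs18, which varied by 0.303, were Etfbkmt (0.0953), Zcchc24 (0.115) and Manea (0.126). These are likenesses over mice that share the same groups and arrays.

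Markers of the cells of the thymus moved beside these genes. Fewer cells of a type and less RNA per cell cannot be told apart in whole-thymus RNA. In NOD.LCMV mice given gp33, 6 of 9 granulocyte markers were higher than with control peptide, where 7.29% of all genes were higher. The largest rises were those of Retnlg (1.68), a neutrophil resistin-like gene, and Mmp8 (1.43), the neutrophil collagenase. Ngp, Camp and Ltf were not called, and 7 of the 9 differences were positive. The mean log2 level of the 9 markers was 7.65 to 7.97 with gp33 and 6.89 to 7.12 with control peptide in NOD.LCMV mice, and 6.76 to 7.11 with gp33 and 6.60 to 6.80 with control peptide in NOD.Ln82-LCMV mice. Thus the mean granulocyte marker level was highest in the group where Rgs1 and Rgs16 were highest.

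Of 10 thymocyte markers 5 were lower with gp33 in NOD.LCMV mice, where 12.5% of all genes were lower. Among them were Cd8a (-0.51) and Cd4 (-0.36), the coreceptors of developing T cells. Their mean level was 11.14 to 11.71 with gp33 and 11.62 to 11.86 with control peptide in NOD.LCMV mice, so the tissue read as thymus throughout. In NOD.Ln82-LCMV mice it was 11.62 to 11.96 with gp33 and 11.75 to 11.96 with control peptide. Of 11 macrophage and dendritic cell markers 4 were lower in NOD.LCMV mice given gp33, against the same 12.5% of all genes. They included Clec9a (-0.72) and Xcr1 (-0.67), which mark cross-presenting dendritic cells. The median of the 11 was -0.03, as over all genes, and 4 of the differences were positive. Rgs14, Rgs18 and Rgs19 were lower in the same group.

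Rgs1 is abundant in B cells. The mean level of 8 B-cell markers was 7.50 to 8.08 with gp33 and 7.52 to 8.33 with control peptide in NOD.LCMV mice, and 8.40 to 8.89 with gp33 and 7.83 to 8.71 with control peptide in NOD.Ln82-LCMV mice. With control peptide the markers had a median strain difference of -0.49, and 1 of 8, Cd79b, was called (-0.72), where 5.54% of all genes were lower, beside the lower Rgs1 of NOD.LCMV mice. In the gp33 response of NOD.LCMV mice 0 of the 8 B-cell markers were called by limma and their median was -0.17, beside the rise of Rgs1. With gp33, 5 of 8 B-cell markers were lower and 6 of 9 granulocyte markers higher in NOD.LCMV mice than in NOD.Ln82-LCMV mice, where 16.8% of all genes were lower and 10.2% higher. Calls on the remaining lists in NOD.LCMV mice were 2 of 8 pericyte markers, 2 of 8 endothelial markers and 2 of 9 thymic epithelial markers lower, 1 of 7 natural killer cell markers higher and 1 lower, and 0 of 5 adipocyte markers, where 12.5% of all genes were lower and 7.29% higher. The part of these cell types in the RGS results was not tested.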

How the data were processed

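Log2 RMA values were used as deposited by the authors; per the submitters' processing notes they came from Affymetrix Expression Console 1.1. The array was the Mouse Gene 1.0 ST, with 35556 probe sets, of which 21789 had a single gene symbol in the platform annotation, 1621 several and 12146 none. For genes with several probe sets the highest mean was kept, leaving 19938 genes. A model with 1 mean per group was fitted over all 15 arrays with limma 3.58.1 in R 4.3.3 (lmFit and eBayes, two-sided, residual degrees of freedom 11), and p-values were adjusted over all genes. No further background correction was applied to the finished RMA values. The fit was tested on simulated data. The RGS genes, pathway lists and marker lists were chosen with earlier results of these data known. Named genes were all members, the 3 nearest profiles of each called member, up to 5 called genes per pathway list for the NOD.LCMV response and up to 3 for other comparisons, and called markers. Promoters are from RefSeq (GRCm38.p6). Results were recomputed after median centring or another quantile normalization, without genes whose mean was under 6.92, with probe sets averaged, with array weights or a variance trend, on the compared groups alone, with a replicate block, and without each mouse.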

Additional observations from a re-analysis of the deposited data

Results flagged for a closer look

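The gp33 responses of Rgs1, Rgs16 and Rgs14 differed between the strains by limma's test of the difference itself, by 1.92, 1.74 and -0.43 on the log2 scale (NOD.LCMV minus NOD.Ln82-LCMV). The call on Rgs14 (adjusted p = 0.0301) was lost without any one of 8 mice and with median centring (adjusted p = 0.0597). With gp33, 6 of 9 granulocyte markers were higher and 5 of 10 thymocyte markers lower than with control peptide in NOD.LCMV mice. Of all genes 7.29% were higher and 12.5% lower there. The part of these markers was not tested.

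At Rgs3, a mouse lay far from its group in both NOD.Ln82-LCMV groups. With gp33, replicate 5 read 9.14 on the log2 scale where the other 4 mice read 8.93 to 8.95, and with control peptide, replicate 1 read 9.08 where the other 3 read 8.90 to 8.93. Of 14 groups of 4 or 5 mice examined over the 7 genes these were the 2 that stood out, where chance gives about 1 in 20.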

How the results depend on the processing

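Alternatives were compared for the 7 genes and for the counts of calls. Among alternatives other than leaving out a mouse, 252 differences kept their direction and side of the threshold, 9 newly passed it, 2 no longer did and 5 changed sign. The sign changed at small differences only: Rgs3 between strains with control peptide (-0.0345 after a second quantile normalization, -0.0608 with median centring), Rgs19 there (-0.0133 with median centring), Rgs2 in the NOD.LCMV response (-0.0105 with array weights) and Rgs3 in the NOD.Ln82-LCMV response (-0.0175 with the replicate block). Rgs18 in the NOD.LCMV response was no longer called after the second quantile normalization (-0.47, limma adjusted p = 0.0536). RGS genes called numbered 5 between strains with gp33 under median centring (3 before), and with array weights 5 for the difference between the responses (3 before) and 2 between strains with control peptide (1 before). Rgs14 between strains with gp33 passed the threshold after the second quantile normalization (adjusted p = 0.0257), with median centring (0.0305) and without dim genes (0.0403). Averaging the 2 Rgs3 probe sets gave a called NOD.LCMV response (-0.19, adjusted p = 0.0466).

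Over all genes, calls in the NOD.Ln82-LCMV response numbered 4 with the variance trend, 4 with array weights, 0 with only the groups compared and 0 with the replicate block (1 before). Array weights gave 3175 calls for the difference between the responses and 4350 between strains with control peptide (1740 and 2057 before). Calls higher and lower split 1632 to 1829 in the NOD.LCMV response under median centring (1453 to 2490 before), 992 to 523 for the difference (890 to 850), 1642 to 4284 between strains with gp33 (2032 to 3354) and 384 to 2132 with control peptide (952 to 1105). The cause was not tested.

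Leaving out each mouse in turn gave 3000 to 4271 calls over all genes and 4 to 5 RGS calls in the NOD.LCMV response, 0 to 2 and 0 in the NOD.Ln82-LCMV response, 1207 to 1954 and 2 to 4 for the difference between them, 4228 to 5641 and 3 to 5 between strains with gp33, and 1049 to 2721 and 0 to 2 with control peptide. The last were lowest without NOD.LCMV control replicate 3 (1049), NOD.Ln82-LCMV control replicate 3 (1188) and NOD.LCMV control replicate 2 (1310). Signs changed within these ranges: Rgs2 from -0.0817 to 0.33 in the NOD.LCMV response, -0.13 to 0.05 in the NOD.Ln82-LCMV response, -0.0392 to 0.38 for the difference and -0.36 to 0.06 between strains with gp33; Rgs3 from -0.0175 to 0.0633 in the NOD.Ln82-LCMV response and -0.0175 to 0.0467 between strains with control peptide; and Rgs18 from -0.0767 to 0.0333 there.

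The replicate numbers of NOD.Ln82-LCMV mice showed no strong pairing: deviations of equally numbered mice correlated at 0.117, 0.00848, -0.0495 and -0.226. So few values cannot exclude a pairing with a small effect. With the replicate block, in which the unpaired gp33 mouse 5 has a term of its own, RGS calls were 5, 0, 4, 3 and 1 in the order above, and Rgs18 joined the calls on the difference (-0.71, limma adjusted p = 0.025).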
